A study of Homo sapiens with 12 samples.

Results

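The members of the giant cytoskeletal linker group were UTRN, SYNE1, SYNE2, MACF1, DST, PLEC, AHNAK, AHNAK2, and FLNA, 9 of the 58735 genes in the count table. They were found by their gene names, and all 9 passed edgeR's filter on low counts in each comparison. The list was selected by name with earlier results of these same libraries known. Which of them guided the choice is not given, and the Arg comparisons were taken as used. The differences between Arg-treated and untreated cells are therefore given as a description, with no p-value for a member. Counts of called members are set beside those of all genes. The changes over time were tested, but the choice may have used them too. The RNA came from TIGK cells, human gingival keratinocytes made immortal by transfection with hTERT, the catalytic subunit of telomerase, and kept as a line. All cells were kept in medium with 48 mM glucose. The Arg groups received 500 μM L-Arginine (Arg) for 24 or 48 h, and the control groups were kept for the same times without Arg, in a base medium that contained none. Each of the 4 groups had 3 poly(A) RNA sequencing libraries (replicates A, B, and C), 12 in all. The sources do not say that replicates were separate cultures, so the p-values measure the spread between these libraries, which may be technical, in a single cell line.

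Giant linker proteins tie the filament systems of a cell to each other, to the plasma membrane, and to the nucleus. Utrophin (UTRN) is the widely expressed relative of dystrophin and couples cortical actin to the dystroglycan complex. The nesprins (SYNE1, SYNE2) span the outer nuclear membrane and, together with SUN proteins, form the LINC complex that links the nucleus to the cytoskeleton. The spectraplakins MACF1 and DST (dystonin, also known as BPAG1) bind actin and microtubules, and the epithelial form of dystonin joins keratin filaments to the hemidesmosomes of basal keratinocytes, as plectin (PLEC) does. AHNAK and AHNAK2 are large scaffold proteins that work with annexin A2 and S100 proteins under the plasma membrane, and filamin A (FLNA) crosslinks actin filaments and binds integrins.

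The promoters are shown for UTRN, AHNAK2, SYNE2, MACF1, and DST, the genes called higher over time with Arg other than AHNAK and SYNE1, so that their letters can be set beside their changes. AHNAK is left out because its RefSeq start is not that of its canonical transcript, and SYNE1 because its counts are uncertain. Each is the run of 250 bases just before the start, in GRCh38.p14 coordinates, from RefSeq, written 5′ to 3′ on the strand of the gene. Capitals mark the motif matches of the search described after the sequences. The windows lie at chr6:144285085-144285334 (plus strand) for UTRN, chr14:104978375-104978624 (minus strand) for AHNAK2, chr14:63852754-63853003 (plus strand) for SYNE2, chr1:39204445-39204694 (plus strand) for MACF1, and chr6:56954831-56955080 (minus strand) for DST.
UTRN: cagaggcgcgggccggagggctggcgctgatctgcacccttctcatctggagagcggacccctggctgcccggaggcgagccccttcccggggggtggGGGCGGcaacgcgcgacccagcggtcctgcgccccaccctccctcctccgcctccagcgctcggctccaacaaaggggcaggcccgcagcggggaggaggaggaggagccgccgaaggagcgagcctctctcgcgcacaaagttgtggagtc
AHNAK2: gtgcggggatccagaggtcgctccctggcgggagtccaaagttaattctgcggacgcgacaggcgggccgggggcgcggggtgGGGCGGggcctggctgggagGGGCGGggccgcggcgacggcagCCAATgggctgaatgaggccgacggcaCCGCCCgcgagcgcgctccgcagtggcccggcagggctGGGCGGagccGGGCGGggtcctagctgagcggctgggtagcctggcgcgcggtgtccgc
SYNE2: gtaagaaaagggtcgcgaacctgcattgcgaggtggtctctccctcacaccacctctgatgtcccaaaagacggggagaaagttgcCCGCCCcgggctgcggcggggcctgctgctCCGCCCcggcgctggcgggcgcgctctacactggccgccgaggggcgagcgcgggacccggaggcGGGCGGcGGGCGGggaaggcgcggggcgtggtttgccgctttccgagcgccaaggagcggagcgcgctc
MACF1: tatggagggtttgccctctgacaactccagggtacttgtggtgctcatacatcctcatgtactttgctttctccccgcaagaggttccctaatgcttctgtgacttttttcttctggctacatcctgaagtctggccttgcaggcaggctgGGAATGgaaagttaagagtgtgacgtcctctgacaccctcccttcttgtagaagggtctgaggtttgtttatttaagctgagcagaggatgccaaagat
DST: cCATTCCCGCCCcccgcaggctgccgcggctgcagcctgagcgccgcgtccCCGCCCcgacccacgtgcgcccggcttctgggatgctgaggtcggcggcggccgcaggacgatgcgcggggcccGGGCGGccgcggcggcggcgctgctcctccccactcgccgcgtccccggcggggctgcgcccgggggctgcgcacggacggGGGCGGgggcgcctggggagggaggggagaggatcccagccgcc

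A promoter window of RefSeq was matched for 8 of the 9 genes. Both strands were searched for a CCAAT box (CCAAT), the GC box (GGGCGG), the TATA box (TATAAA), the TEAD motif (GGAATG), and the AP-1 motif (TGANTCA). The GC box lay in 6 of the 8 windows and in 42.6% of all 35114 windows of the same length. UTRN held 1 GC box, SYNE2 and DST held 4 each, and AHNAK2 held 5 beside a CCAAT box, a motif found in 2 of the 8 windows and in 32% of all. The TEAD motif was found in MACF1, at bases -99 to -94 from the start, and in DST, at -249 to -244, against 11.9% of all windows. In DST it shared a base with a GC box. The TATA box was found in SYNE1 alone of the 8, against 10.7% of all windows, and the AP-1 motif in none of the 8, against 6.57%. The MACF1 window stood apart by its base composition, with 48.4% G and C, below the median of 58% over all windows, while the other 4 printed windows held between 72.8% and 82.8%. The table lists 3 starts each for SYNE2, MACF1, and DST and 2 each for UTRN and AHNAK2, and the counts do not tell which start was used. These matches are a description of the letters, not of binding.

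The libraries held between 16542243 and 19040964 counts. All 8 keratinocyte markers were present, with a summed level between 42676 and 55036 CPM (counts scaled to the size of the library, with edgeR's TMM factors). The summed level of 7 fibroblast markers lay between 30.2 and 54.4 CPM in the 24 h libraries and between 72.7 and 102.5 CPM in the 48 h libraries. It was carried by DCN, with 15.3 to 76.1 CPM, and COL1A1, with 10.8 to 27.0 CPM. Of the other listed markers, COL1A2, COL3A1, and PDGFRA were at 0.269 CPM or less in every library. PDGFRB and LUM were at 2.35 CPM or less. Melanocyte, endothelial, and leukocyte markers summed to 3.57 CPM or less each, with TYR and LYZ among those at 0. Control 48 h replicate B stood apart from its group. Mitochondrially encoded genes took 1.55% of its counts against 0.906% and 0.707% in replicates A and C, and its genes lay a median of 0.196 log2 units from the other replicates, against 0.110 to 0.169 in the other libraries. Results at 48 h without Arg are therefore also given without it where they moved.

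Divided by exonic length, the levels of the 9 genes fell into a high tier, a middle tier, and SYNE1. FLNA, PLEC, and AHNAK were the high tier. In the 24 h control, FLNA had 117 CPM per kb of exons ± 4.32 (SD, n = 3), PLEC 115 ± 4.36, and AHNAK 56.8 ± 2.12. Over the 12 libraries, FLNA lay above 98.2%, PLEC above 97.8%, and AHNAK above 95.7% of 15148 genes on this scale. The middle tier of the 24 h control was DST with 5.26 CPM per kb ± 0.620, MACF1 with 2.89 ± 0.110, AHNAK2 with 2.11 ± 0.590, UTRN with 1.95 ± 0.375, and SYNE2 with 1.93 ± 0.0369 (n = 3 each). SYNE1 had 0.0390 CPM per kb ± 0.00655. Neighbours whose replicate ranges overlapped in that group, and whose order is therefore not set, were FLNA with PLEC, MACF1 with AHNAK2, AHNAK2 with UTRN, and UTRN with SYNE2. In the 48 h Arg group, AHNAK2 stood next below the high tier with 10.1 CPM per kb ± 0.679, followed by DST with 7.55 ± 0.257 and UTRN with 5.91 ± 0.608, with no overlap of the replicate ranges between these neighbours. In bulk RNA, fewer cells that express a gene and less of its RNA per cell cannot be told apart.

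**Figure D1:**
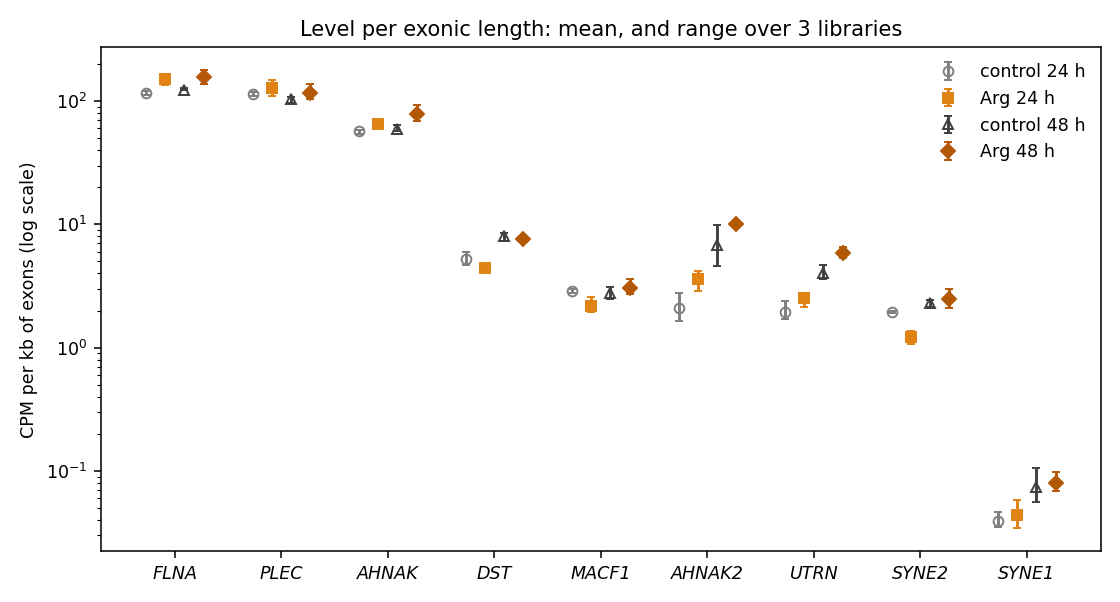
Level of each gene in CPM per kb of exons on a log axis, by group, with the mean of 3 libraries as the marker and the lowest and highest library as the bar. FLNA, PLEC, and AHNAK sit above the other genes in all groups, and SYNE1 sits lowest, between 0.0390 and 0.0795 CPM per kb.

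Together, the 9 genes took between 0.450% and 0.480% of the counts of a library in the 24 h control, between 0.476% and 0.595% in the 24 h Arg group, between 0.501% and 0.514% in the 48 h control, and between 0.550% and 0.700% in the 48 h Arg group. The highest share was that of Arg 48 h replicate C. PLEC, FLNA, and AHNAK held most of these counts.

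To see how the genes changed with time in culture, the 48 h libraries were compared with the 24 h libraries, separately without and with Arg. Without Arg, UTRN, DST, and AHNAK2 rose, and with Arg these genes rose together with SYNE1, SYNE2, MACF1, and AHNAK. A pass in 1 comparison alone does not show that the changes differed. SYNE1 had log2 fold changes of 0.93 without Arg and 0.85 with Arg, while those of SYNE2, MACF1, and AHNAK were larger with Arg. PLEC and FLNA passed the test in neither comparison. A gene was called when its p-value in edgeR's quasi-likelihood test was under 0.05 after Benjamini–Hochberg adjustment over all genes tested. Without Arg, 3 of the 9 genes were called higher, where 9.90% of all 14449 genes were called higher, and 0 were called lower, where 10% were. With Arg, 7 of the 9 were called higher, where 14.3% of all 14398 genes were, and 0 were called lower, where 14.0% were. DESeq2 called 4 higher without Arg and 7 with Arg, where it called 10.4% and 14.1% of all genes higher. In edgeR's test at an unadjusted p under 0.05, 5 and 7 were higher, where 17.1% and 19.3% of all genes were. By either tool 0 were lower. The median log2 fold change of the 9 genes was 0.25 without Arg and 0.76 with Arg, and that of all genes was 0.012 and 0.00092. The list was chosen with earlier results known. These counts and the p-values of the 9 genes over time are therefore not independent evidence of a direction. The comparison over time with Arg also shares its libraries with the Arg comparisons, where SYNE2 and MACF1 were lower in the 24 h Arg group.

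Gene length moved with this result. All 9 genes have over 10 kb of exons, and among the genes of that class a larger share was called. Without Arg, 19.1% of 1603 such genes were called higher and 6.92% lower. With Arg, 30.7% of 1608 were called higher and 6.28% lower. The median log2 fold change of all genes was -0.026 in the class up to 2 kb and 0.12 over 10 kb without Arg, and -0.11 and 0.16 with Arg. When a trend with exonic length was removed from each library, UTRN, DST, and AHNAK2 were still called higher without Arg, and UTRN, SYNE2, DST, and AHNAK2 with Arg. SYNE1, MACF1, and AHNAK were then no longer called with Arg, with adjusted p-values of 0.241, 0.241, and 0.717 in edgeR's test, and PLEC was called lower, with a log2 fold change of -0.27 without Arg (adjusted p = 0.0403) and -0.33 with Arg (adjusted p = 0.00635). Beyond this correction, the part of length in the result was not tested. The summed level of the fibroblast markers also differed between the times, from 54.4 CPM at most at 24 h to 72.7 CPM at least at 48 h, and its part was not tested.

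**Figure D2:**
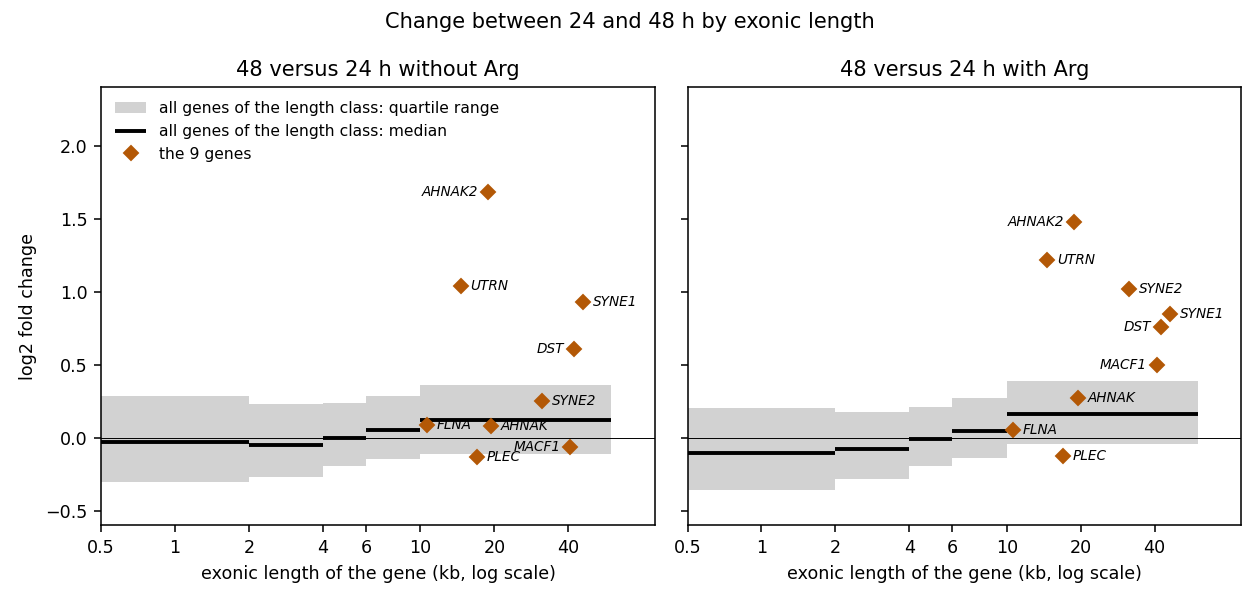
Log2 fold change of 48 over 24 h without Arg (left) and with Arg (right) against exonic length in kb on a log axis. Diamonds are the 9 genes, black lines the median and grey boxes the quartile range of all genes tested in 5 length classes (the outer classes are drawn to 0.5 and 60 kb). AHNAK2, UTRN, SYNE1, and DST lie above the quartile range of the genes over 10 kb in both plots, and SYNE2 and MACF1 only in the plot with Arg.

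UTRN lies at chr6:144285701-144853034 on the plus strand (GRCh38, as in the count table), and its canonical transcript in GENCODE v44 has 75 exons and 3433 codons. Its level was 25.6, 34.8, and 25.1 CPM in control 24 h replicates A, B, and C and 53.0, 68.1, and 54.3 CPM in the 48 h control. With Arg it was 31.2, 40.6, and 39.5 CPM at 24 h and 78.6, 84.2, and 96.0 CPM at 48 h. Every 48 h library lay above every 24 h library, and the 48 h Arg libraries lay above all others. UTRN rose 2.06-fold without Arg (log2 fold change 1.04 ± 0.14 SE, adjusted p = 0.00159) and 2.33-fold with Arg (1.22 ± 0.10, adjusted p = 6.23e-08). The difference of Arg from control was 0.38 ± 0.13 on the log2 scale at 24 h, where the groups overlapped, and 0.56 ± 0.10 at 48 h, where they did not.

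AHNAK2 lies at chr14:104937244-104978357 on the minus strand and has 7 exons and 5795 codons. It showed the largest change over time of the 9 genes in both comparisons. Its level was 31.0, 52.1, and 35.7 CPM in the 24 h control and 107, 186, and 87.0 CPM in the 48 h control. With Arg it was 54.2, 71.1, and 78.8 CPM at 24 h and 185, 180, and 204 CPM at 48 h. The groups of different times did not overlap, but control 48 h replicate B reached the level of the 48 h Arg libraries, while replicates A and C stayed below them. AHNAK2 rose 3.21-fold without Arg (log2 fold change 1.68 ± 0.25, adjusted p = 0.00213) and 2.79-fold with Arg (1.48 ± 0.10, adjusted p = 1.05e-08). Without control 48 h replicate B the log2 fold change without Arg was 1.30 (adjusted p = 0.000339). The log2 difference of Arg from control was 0.78 ± 0.16 at 24 h and 0.58 ± 0.20 at 48 h, and the latter was 0.96 without that library.

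AHNAK lies at chr11:62433542-62556235 on the minus strand, with 5 exons and 5890 codons. Its level was between 1059 and 1132 CPM in the 24 h control, between 1117 and 1243 CPM in the 48 h control, between 1173 and 1363 CPM in the 24 h Arg group, and 1352, 1404, and 1822 CPM in the 48 h Arg group. Arg libraries lay above the control libraries of their time, and the 48 h Arg group overlapped the 24 h Arg group. The change over time was 0.079 ± 0.068 on the log2 scale without Arg (adjusted p = 0.450), with a 95% interval from -0.070 to 0.23, and AHNAK rose by 0.27 ± 0.088 with Arg (adjusted p = 0.0258). That call was lost without Arg 48 h replicate C, where the log2 fold change was 0.13 (adjusted p = 0.238), and without Arg 24 h replicate A (adjusted p = 0.0778) or C (adjusted p = 0.0545). Arg differed from control by a log2 value of 0.19 ± 0.076 at 24 h and 0.38 ± 0.095 at 48 h.

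SYNE2, which encodes nesprin-2, lies at chr14:63852983-64226433 on the plus strand, with 116 exons and 6907 codons in the canonical transcript. Its level was 61.8, 60.5, and 59.5 CPM in the 24 h control, the tightest group of the gene, and 33.3, 38.9, and 43.1 CPM in the 24 h Arg group. At 48 h it was 66.7, 72.6, and 76.2 CPM without Arg and 65.5, 74.2, and 94.0 CPM with Arg. The 24 h Arg libraries lay below all 9 others, and the groups at 48 h overlapped. SYNE2 rose 2.02-fold from 24 to 48 h with Arg (log2 fold change 1.02 ± 0.12, adjusted p = 2.40e-06). The low 24 h Arg libraries enter this test too, so its p-value is not independent evidence of a rise. Without Arg the change was 0.25 ± 0.082 (adjusted p = 0.0518), with a 95% interval from 0.069 to 0.43. This value passed the threshold when only library sizes were used (adjusted p = 0.0248), with a stricter filter on low counts (0.0437), and with replicate letters blocked (0.0297). With the length trend removed it was 0.076 (adjusted p = 0.572). Between Arg and control, the log2 difference was -0.66 ± 0.10 at 24 h and 0.11 ± 0.11 at 48 h. ESR2, on the opposite strand, overlaps SYNE2 and had 378 counts in all 12 libraries against 13529 of SYNE2, and the strand setting of the counting is not given.

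SYNE1, which encodes nesprin-1, lies at chr6:152121684-152637801 on the minus strand, with 146 exons and 8797 codons, the longest coding sequence of the group. It had between 28 and 93 counts per library, or 1.57 to 4.82 CPM, so its values are the least precise of the 9. The level was between 1.62 and 2.15 CPM in the 24 h control, 1.57 and 2.69 CPM in the 24 h Arg group, 2.57 and 4.82 CPM in the 48 h control, and 3.18 and 4.52 CPM in the 48 h Arg group. The highest library was again control 48 h replicate B. The change over time was 0.93 ± 0.32 on the log2 scale without Arg (adjusted p = 0.0601), which was 0.59 without that library (adjusted p = 0.228), and SYNE1 rose by 0.85 ± 0.29 with Arg (adjusted p = 0.0358). The call with Arg held in 1 of the 6 fits that left out a library, and the log2 fold change lay between 0.68 and 1.11 in those. The log2 difference of Arg from control was 0.17 ± 0.34 at 24 h and 0.095 ± 0.29 at 48 h. It was -0.092 at 24 h without Arg 24 h replicate C and 0.43 at 48 h without control 48 h replicate B, and at 48 h it lay between -0.082 and 0.19 without any other library. ESR1, on the opposite strand, overlaps SYNE1 and had 533 counts against 594 of SYNE1. Reads of the pair cannot be told apart if counting did not use the strand, so SYNE1 is uncertain.

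MACF1 lies at chr1:39081316-39487177 on the plus strand, with 101 exons and 7555 codons. Its level was 121, 113, and 120 CPM in the 24 h control and 79.2, 106, and 81.0 CPM in the 24 h Arg group. At 48 h it was 111, 101, and 126 CPM without Arg and 110, 118, and 147 CPM with Arg. As for SYNE2, the 24 h Arg libraries lay below those of the 24 h control, and the groups at 48 h overlapped. MACF1 rose 1.41-fold from 24 to 48 h with Arg (log2 fold change 0.50 ± 0.11, adjusted p = 0.00172), and without Arg the change was -0.064 ± 0.090 (adjusted p = 0.657), with a 95% interval from -0.26 to 0.13. Without control 48 h replicate B that value was 0.0098 (adjusted p = 0.952). Its log2 difference between Arg and control was -0.41 ± 0.10 at 24 h and 0.15 ± 0.11 at 48 h. As for SYNE2, the p-value over time with Arg rests on the low 24 h Arg libraries and is not independent evidence of a rise.

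DST lies at chr6:56457987-56954628 on the minus strand, with 104 exons and 7818 codons. Its level was 199, 251, and 217 CPM in the 24 h control and 178, 194, and 194 CPM in the 24 h Arg group. At 48 h it was 344, 359, and 313 CPM without Arg and 332, 317, and 311 CPM with Arg. All 48 h libraries lay above all 24 h libraries, and DST was the only gene of the group with a lower mean in Arg than in control at both times. It rose 1.52-fold without Arg (log2 fold change 0.61 ± 0.092, adjusted p = 0.00231) and 1.69-fold with Arg (0.76 ± 0.067, adjusted p = 1.29e-07). With the length trend removed, the value with Arg was 0.41 (adjusted p = 0.000143). Between Arg and control, DST differed by a log2 value of -0.24 ± 0.088 at 24 h and -0.085 ± 0.067 at 48 h. The counts pool the epithelial, neuronal, and muscle forms of dystonin, which differ in their ends, so the rise of a single form cannot be read from them.

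PLEC and FLNA, the most abundant genes of the group per length, did not pass the test over time. PLEC lies at chr8:143915147-143976734 on the minus strand, and its level was between 1882 and 2029 CPM in the 24 h control, 1651 and 1847 CPM in the 48 h control, 1870 and 2528 CPM in the 24 h Arg group, and 1763 and 2328 CPM in the 48 h Arg group. The change of PLEC over time was -0.13 ± 0.068 on the log2 scale without Arg (adjusted p = 0.183), with a 95% interval from -0.28 to 0.013, and -0.12 ± 0.097 with Arg (adjusted p = 0.371), with an interval from -0.33 to 0.078. FLNA lies at chrX:154348524-154374638 on the minus strand, and its level was between 1192 and 1283 CPM in the 24 h control, 1292 and 1343 CPM in the 48 h control, 1426 and 1722 CPM in the 24 h Arg group, and 1456 and 1884 CPM in the 48 h Arg group. Each Arg library of FLNA lay above each control library of either time. The change of FLNA over time was 0.088 ± 0.063 without Arg (adjusted p = 0.352), with an interval from -0.049 to 0.23, and 0.051 ± 0.082 with Arg (adjusted p = 0.694), with an interval from -0.12 to 0.22. The log2 difference of Arg from control was 0.36 ± 0.080 at 24 h and 0.33 ± 0.079 at 48 h for FLNA, and 0.15 ± 0.092 and 0.16 ± 0.088 for PLEC.

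**Figure D3:**
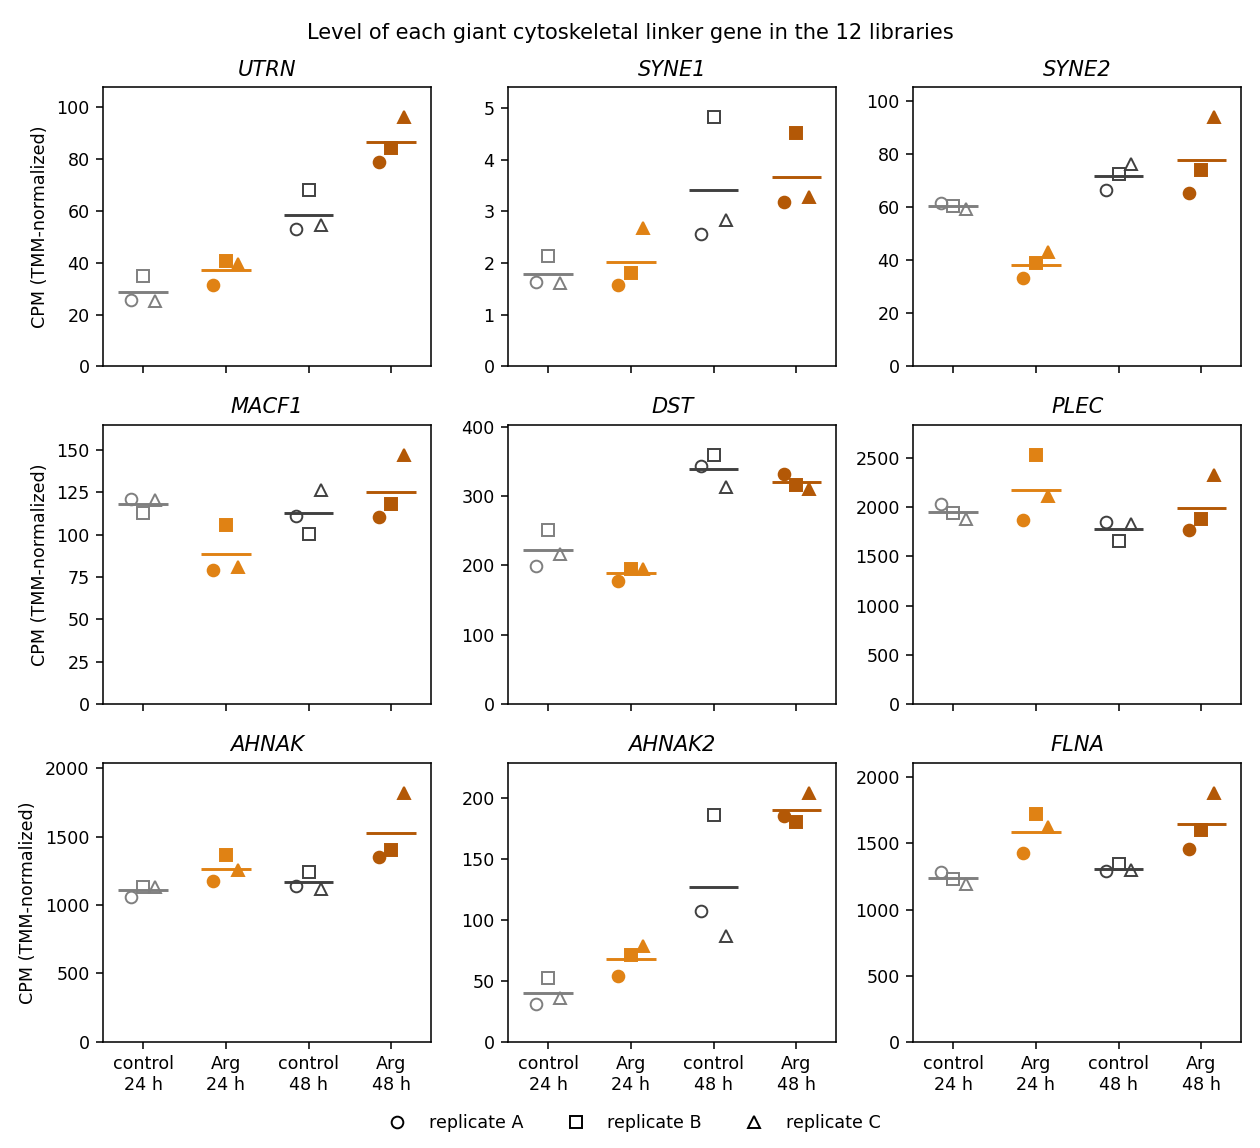
Level of each gene in CPM in the 12 libraries, with circles, squares, and triangles for replicates A, B, and C, open symbols for control, filled symbols for Arg, and a line at the mean of 3 libraries. The 48 h libraries of UTRN, DST, and AHNAK2 lie above their 24 h libraries, SYNE2 is lowest in the 24 h Arg group, and control 48 h replicate B reaches the Arg level for AHNAK2.

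To describe the genes in Arg-treated against untreated cells, the fitted differences are set beside the share of all genes called. These comparisons were taken as used in the choice of the genes, so nothing is read from the counts. At 24 h, FLNA and AHNAK2 were called higher, 2 of 9, where 2.79% of all 14279 genes were, and SYNE2 and MACF1 were called lower, 2 of 9, where 3.84% were. At an unadjusted p under 0.05, the criterion of the methods of the study, 4 genes were higher, where 10.8% of all genes were, and 3 were lower, where 11.9% were. The replicates of Arg and control did not overlap for AHNAK, AHNAK2, and FLNA, which were higher, where 12.9% of all genes were so, and for SYNE2, MACF1, and DST, which were lower, where 13.4% were. The median log2 difference of the 9 genes was 0.17, and that of all genes was 0.0030.

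At 48 h, edgeR called 0 of the 9 genes higher and 0 lower, where 0% of all 14562 genes were called higher and 0.117% lower. DESeq2 called 3 of the 9 higher and 0 lower, where it called 0.275% of all genes higher and 0.989% lower. At an unadjusted p under 0.05 in edgeR's test, 4 genes (UTRN, AHNAK, AHNAK2, and FLNA) were higher, where 5.94% of all genes were, and 0 were lower, where 7.49% were. The replicates did not overlap for UTRN, AHNAK, and FLNA, which were higher, where 8.56% of all genes were so, and for none that was lower, where 8.51% were. The median log2 difference of the 9 genes was 0.16. Without control 48 h replicate B it was 0.35, and edgeR then called 4 of the 9 higher, where 7.76% of all 14854 genes tested were called higher. Length moved with this comparison too, with a median of all genes of -0.058 up to 2 kb and 0.071 over 10 kb. With the length trend removed, the median of the 9 genes was 0.066. In the alternative fits with all libraries kept, SYNE2 lay between -0.025 and 0.12 and MACF1 between -0.0041 and 0.15. SYNE1 lay between -0.032 and 0.13 there, and the other genes kept their sign. The part of length in these values was not tested.

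The log2 difference of Arg from control at 48 h minus that at 24 h, fitted over the 12 libraries, was largest for SYNE2, at 0.77 ± 0.16, and MACF1, at 0.57 ± 0.16. It lay between -0.20 and 0.20 for the other 7 genes. For AHNAK2 it was -0.20 ± 0.29, and 0.18 without control 48 h replicate B, and for SYNE1 it was -0.074 ± 0.43, and 0.26 without that library. Since this is the difference between the comparisons taken as used in the choice of the genes, it is not tested here. A rise of SYNE2 or MACF1 over time is not shown to need Arg.

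**Figure D4:**
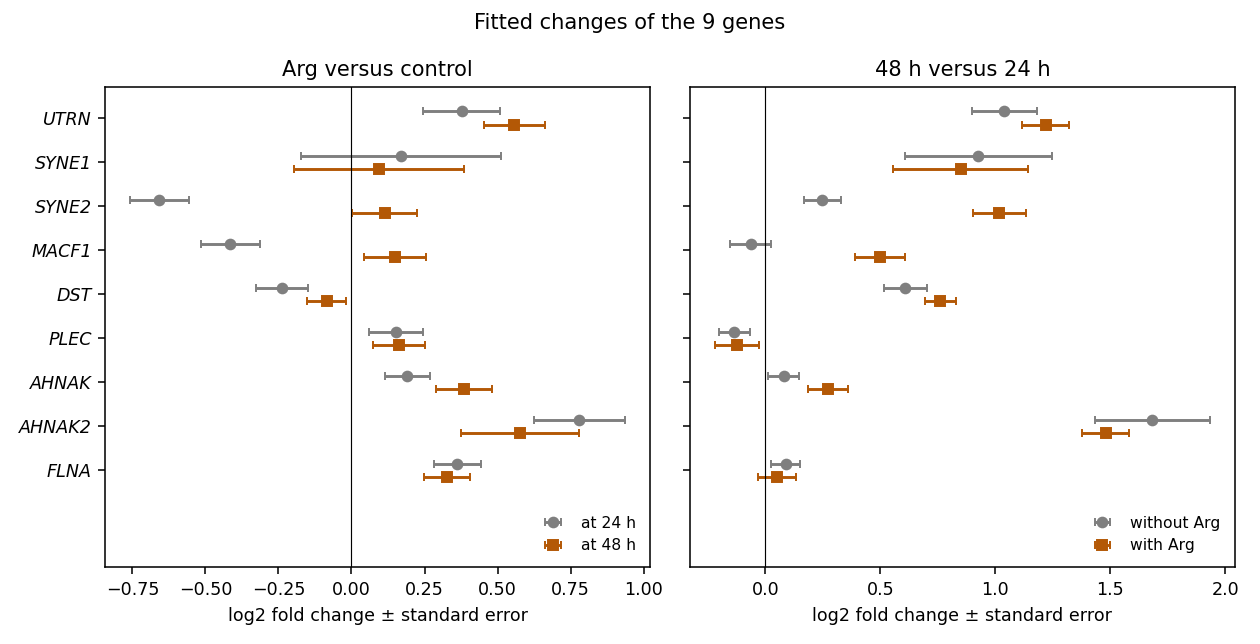
Log2 fold change of each gene with its standard error for Arg over control (left, grey at 24 h and orange at 48 h) and for 48 over 24 h (right, grey without and orange with Arg), each from 3 libraries against 3. SYNE2 and MACF1 lie left of 0 at 24 h and right of 0 at 48 h in the left plot, and UTRN, SYNE1, DST, and AHNAK2 lie right of 0 in both comparisons of the right plot.

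The genes that work with the linkers were counted over lists of known partners. Of the calls of partner genes chosen by smallest p, at least 1 fit that left out a library lost 10 of 23 over time without Arg, 3 of 26 over time with Arg, and 8 of 10 with Arg at 24 h. The share of all genes called higher moved in these fits too. It lay between 2.85% and 10.7% over time without Arg, between 10.4% and 12.4% over time with Arg, and between 0.859% and 4.42% with Arg at 24 h. Of 7 tested genes of the dystrophin complex, the partners of UTRN, 2 rose and 0 fell without Arg, and 2 rose and 1 fell with Arg (median log2 fold changes 0.061 and 0.29). DAG1, which encodes dystroglycan, rose by 0.64 ± 0.11 on the log2 scale without Arg (adjusted p = 0.00370) and by 0.40 ± 0.082 with Arg (adjusted p = 0.00112), from 119 CPM ± 21.5 to 186 ± 7.60 (SD, n = 3) in the control. SNTB2, a syntrophin, rose by 0.38 ± 0.072 with Arg (adjusted p = 0.000576), and SGCE, a sarcoglycan, by 0.48 ± 0.14 without Arg (adjusted p = 0.0318). DTNB, a dystrobrevin, was lower with Arg at 24 h, by -0.66 ± 0.17 (adjusted p = 0.0249), the only call of this list in the Arg comparisons.

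Of 11 tested genes of the LINC complex and nuclear lamina, the partners of the nesprins, 2 rose and 0 fell over time without Arg, and 2 rose and 1 fell with Arg. SUN2, which anchors nesprins in the nuclear envelope, rose by 0.88 ± 0.12 without Arg (adjusted p = 0.00159) and by 0.62 ± 0.11 with Arg (adjusted p = 0.000236). In the Arg comparison at 24 h, 4 of the 11 were higher and 0 lower, where 2.79% and 3.84% of all genes were. LMNB1 and LMNA, the genes of lamins B1 and A/C, were higher by 0.48 ± 0.076 (adjusted p = 0.000968) and 0.37 ± 0.085 (adjusted p = 0.0142), SUN2 by 0.44 ± 0.13 (adjusted p = 0.0496), and LBR, the lamin B receptor, by 0.31 ± 0.084 (adjusted p = 0.0329). SYNE2 was lower in the same libraries. At 24 h, the call of LMNB1 held in all 6 fits that left out a library. Those of LBR, SUN2, and LMNA were lost in 5, 4, and 3 of these fits.

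Of the 10 other plakins and hemidesmosome genes, the partners of DST and PLEC, 4 rose and 2 fell over time in each comparison. Those that rose were desmosomal or cornified-layer plakins and epiplakin. DSP, which encodes desmoplakin, rose by 0.75 ± 0.12 without Arg (adjusted p = 0.00282) and by 0.89 ± 0.070 with Arg (adjusted p = 3.64e-08). PPL, which encodes periplakin, rose by 1.07 ± 0.14 (adjusted p = 0.00159) and by 0.86 ± 0.10 (adjusted p = 4.89e-06), and EPPK1 rose by 0.64 ± 0.15 (adjusted p = 0.0125) and by 0.71 ± 0.11 (adjusted p = 7.02e-05). ITGA6, the α6 integrin of hemidesmosomes, fell, with log2 fold changes of -0.39 ± 0.081 without Arg (adjusted p = 0.00749) and -0.18 ± 0.062 with Arg (adjusted p = 0.0365). With Arg at 24 h, PPL was higher by 0.54 ± 0.14 (adjusted p = 0.0255) and ITGA6 lower, at -0.40 ± 0.084 (adjusted p = 0.00840).

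The spectrins, which are related in domain structure to UTRN and the nesprins, were listed with ankyrins and adducins. In this list, 3 of 11 tested genes rose and 0 fell over time without Arg, and 6 of 12 rose and 1 fell with Arg. ANK3, which encodes ankyrin-G, rose by 1.73 ± 0.32 on the log2 scale without Arg (adjusted p = 0.00497) and by 1.60 ± 0.16 with Arg (adjusted p = 4.07e-07), from a low level of 4.66 CPM ± 1.64 in the 24 h control. SPTBN1, a β-spectrin, rose by 0.51 ± 0.078 (adjusted p = 0.00238) and by 0.39 ± 0.082 (adjusted p = 0.00138). ADD2, an adducin, fell with Arg, from 3.79 CPM ± 1.01 to 0.924 ± 0.130 (log2 fold change -2.03 ± 0.34, adjusted p = 0.000154).

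The filamin, actinin, and focal adhesion genes moved both ways over time, with 5 higher and 6 lower of 17 without Arg and 7 higher and 4 lower of 16 with Arg. The nonmuscle myosins MYH14 and MYH10 rose, MYH14 by 1.24 ± 0.13 without Arg (adjusted p = 0.000554) and 1.51 ± 0.10 with Arg (adjusted p = 8.56e-09), MYH10 by 0.45 ± 0.079 (adjusted p = 0.00405) and 0.48 ± 0.075 (adjusted p = 9.57e-05). ACTN1, an actin crosslinker, fell, with log2 fold changes of -0.39 ± 0.099 without Arg (adjusted p = 0.0189) and -0.48 ± 0.072 with Arg (adjusted p = 5.98e-05), and so did FLNC, a relative of FLNA, with -0.48 ± 0.14 (adjusted p = 0.0329) and -0.65 ± 0.093 (adjusted p = 3.58e-05). Of 17 microtubule end and motor genes, the partners of MACF1 and DST, 2 rose and 1 fell without Arg, and 3 rose and 0 fell with Arg, among them DYNC1H1, the dynein heavy chain, by 0.25 ± 0.072 (adjusted p = 0.0291) and 0.64 ± 0.098 (adjusted p = 6.56e-05). CAMSAP1, which binds microtubule minus ends, rose with Arg by 0.59 ± 0.094 (adjusted p = 9.89e-05). With Arg at 24 h, GAS2L3, an actin-microtubule linker, was higher by 0.73 ± 0.15 (adjusted p = 0.00587), and KLC2, a kinesin light chain, was lower, at -0.48 ± 0.11 (adjusted p = 0.0178).

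Of 6 tested AHNAK partners, 1 rose and 2 fell over time without Arg, and 2 rose and 3 fell with Arg. ANXA2, which encodes annexin A2, had log2 fold changes of -0.39 ± 0.087 (adjusted p = 0.0104) and -0.49 ± 0.062 (adjusted p = 9.44e-06), and S100A11 had -0.36 ± 0.088 (adjusted p = 0.0152) and -0.38 ± 0.064 (adjusted p = 0.000176). ANXA1 fell with Arg, at -0.25 ± 0.069 (adjusted p = 0.0106). DYSF, which encodes the membrane repair protein dysferlin, rose by 1.07 ± 0.18 without Arg (adjusted p = 0.00376) and by 0.78 ± 0.12 with Arg (adjusted p = 9.88e-05).

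Giant genes of other functions were counted as a comparison for size. Of 32 such genes, 16 rose and 1 fell over time without Arg, and 24 rose and 0 fell with Arg, with median log2 fold changes of 0.35 and 0.41, against 0.25 and 0.76 for the 9 linker genes. Of all genes over 10 kb of exons, 19.1% were called higher and 6.92% lower without Arg, and 30.7% and 6.28% with Arg. LRP1, an endocytic receptor, rose by 1.09 ± 0.16 without Arg (adjusted p = 0.00204) and by 1.22 ± 0.13 with Arg (adjusted p = 1.67e-06). The lysosomal trafficking gene LYST rose by 0.67 ± 0.22 (adjusted p = 0.0474) and by 1.31 ± 0.15 (adjusted p = 3.22e-06), the DNA damage kinase gene ATM by 0.60 ± 0.11 (adjusted p = 0.00524) and by 0.80 ± 0.083 (adjusted p = 9.00e-07), and the lipid transfer gene VPS13D by 0.49 ± 0.10 (adjusted p = 0.00862) and by 0.81 ± 0.096 (adjusted p = 4.43e-06). In the Arg comparison at 48 h, 30 of the 32 had a positive log2 difference, with a median of 0.20.

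In the Arg comparison at 24 h, calls in the lists not yet given were few. Of all genes, edgeR called 2.79% higher and 3.84% lower there. SPTBN1 was the only spectrin or ankyrin called, higher by 0.33 ± 0.087 on the log2 scale (adjusted p = 0.0286). Of the focal adhesion genes, 2 of 17 were higher and 1 lower, and of the microtubule genes 1 was higher and 2 lower. These were MYH9, ACTN4, FBLIM1, and MAPRE2 beside GAS2L3 and KLC2, the first 4 being named after their values were seen. Of the AHNAK partners edgeR called 0 of 6, with 1 higher at an unadjusted p under 0.05 and 1 called higher by DESeq2. The shares of all genes for the latter 2 counts were 10.8% and 3.46%. Of the giant genes of other functions, 3 of 32 were higher and 1 lower. The former were MKI67, ASPM, and CENPF, which work in mitosis and were higher by 0.53 ± 0.12 (adjusted p = 0.0106), 0.44 ± 0.088 (adjusted p = 0.00589), and 0.44 ± 0.10 (adjusted p = 0.0142), and the latter was the cadherin FAT1, at -0.32 ± 0.080 (adjusted p = 0.0241), also named after their values were seen. At 48 h, edgeR called 0 of the 111 tested genes of the 8 lists. At an unadjusted p under 0.05 in its test, 31 were higher and 5 lower, where 5.94% and 7.49% of all genes were. Of the 31, 15 were giant genes of other functions. DESeq2 called 5 higher and 1 lower, where it called 0.275% of all genes higher and 0.989% lower.

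Over the 12 libraries, which share the times and the Arg treatment, the log2 CPM values of the 9 genes were related to each other to very different degrees. Pearson's r was 0.98 for UTRN and AHNAK2, 0.88 for AHNAK and FLNA, and 0.82 for SYNE2 and MACF1, while DST and PLEC had the lowest value, -0.49. Among 7290 genes with a mean of at least 20 CPM, those closest to the mean of the standardized values of the 9 genes were ZZEF1 (r = 0.99), SPEN (0.97), HUWE1 (0.97), DYNC1H1 (0.97), and HERC2 (0.97), with exonic lengths from 13294 to 36852 bases. Those closest to UTRN alone were CHD3 (0.99), NFE2L1 (0.99), MYH10 (0.99), AAK1 (0.99), and DSP (0.98), with exonic lengths from 5825 to 23608 bases. These values describe 4 groups of 3 libraries and carry no test.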

How the data were processed

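Poly(A) RNA sequencing of TIGK cells at 48 mM glucose, with 500 μM or no Arg for 24 or 48 h, gave 3 libraries per group. The authors filtered reads with fastp, mapped them with STAR to GRCh38/hg38 and counted them per gene with featureCounts, and deposited raw counts without normalization. Versions, annotation release, and strand setting are not given in the sources used here. 0 columns were left out.

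Each comparison was fitted on its own 6 libraries with edgeR 4.0.16 in R 4.3.3 (filterByExpr, TMM, glmQLFit and glmQLFTest), with Benjamini–Hochberg adjustment over all genes tested. Standard errors are the log2 fold change over the square root of F, and 95% intervals use the t quantile at the test's total degrees of freedom. CPM used TMM factors over the 12 libraries, and exonic lengths came from the deposited table. The members and lists were chosen with earlier results of these data known. All 9 members were named, with at most 4 called genes per partner list by smallest p and the 5 most similar genes. A gene that this rule would name and a marker are not reported here. The lists covered 8 groups, and 14 of the 15 LINC and lamina symbols were in the table. The steps were tested on simulated data. For the length correction, a lowess fit on exonic length (span 0.3, prior count 2) was subtracted per library. The alternatives also included DESeq2 1.42.0, other scalings and filters, a replicate block, and leaving out each library.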

Additional observations from a re-analysis of the deposited data

How the results depend on the processing

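For the change over time without Arg, the correction for exonic length gave a median of 0.0756 (0.0753 with the replicate block), 1 gene called lower (2 with the block), and log2 fold changes of -0.0673 for AHNAK (-0.0670 with the block) and -0.0135 for FLNA (-0.0120 with the block). For the change over time with Arg it gave a median of 0.415 (0.413), 4 genes called higher (4) and 1 called lower (1), and -0.0739 for FLNA (-0.0764). The median difference between the Arg effects at 48 and 24 h became -0.0273 (-0.0284). With that correction 9.14% of all genes were called higher and 11% lower without Arg, and 12.6% and 13.6% with Arg. With the replicate block alone, 5 genes were called higher over time without Arg, where 13.6% of all genes were, and 4 genes were called higher with Arg at 48 h, where 0.295% were. The latter count was 3 with DESeq2 (0.275% of all genes), 4 with all low-count genes kept (0.730%), and 1 with the length correction and block together (0.165%), and DESeq2 called 1 gene higher with Arg at 24 h (3.46%). The letters A to C are not treated as pairs, because the correlations of the deviations of same-lettered libraries lay between -0.0932 and 0.204 and were not above 0.1 for every letter in any comparison.

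Leaving out a library in turn gave 1 to 3 genes called higher and 1 to 2 called lower with Arg at 24 h. In the same fits, 0.859% to 4.42% of all genes were called higher and 1.59% to 6.02% lower. With Arg at 48 h, leaving out a library gave 0 to 4 called higher and a median of 0.169 to 0.346. The 4 were called without control 48 h replicate B, where 7.76% of all genes were called higher. In the other fits at 48 h, at most 0.00673% of all genes were. The log2 fold change over time lay between -0.155 and 0.00977 for MACF1 without Arg, between -0.0558 and 0.130 for FLNA with Arg, and between -0.249 and 0.00151 for PLEC with Arg. Apart from the effect of the correction itself, the cause of these moves was not tested. With 3 libraries per group and 28 to 93 counts of SYNE1 in a library, depth limits that gene most.

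Of the named partner genes, calls lost when 1 library was left out were those of SGCE, GAS2L3, DYNC1H1, FLNC, LYST, ACTN1, ANXA2, EPPK1, S100A11, and VPS13D over time without Arg (adjusted p from 0.0513 to 0.178), those of ITGA6, LBR, and ANXA1 over time with Arg (0.0503 to 0.162), and those of LBR, DTNB, PPL, SPTBN1, SUN2, KLC2, LMNA, and ITGA6 with Arg at 24 h (0.0501 to 0.236). Over time without Arg, leaving out control 24 h replicate A or C lost each of these calls but that of VPS13D, which was lost without replicate A. Of all genes, 2.85% were called higher without replicate A and 3.34% without replicate C, against 9.90% with all libraries kept. With all libraries kept, the length correction lost the calls of DYNC1H1, LYST, and SGCE over time without Arg and of SPTBN1 with Arg (adjusted p from 0.0728 to 0.457), and DESeq2 lost that of PPL with Arg at 24 h (0.148). The other settings lost those of DYNC1H1 and FLNC over time without Arg, ITGA6 and LBR with Arg, and SUN2 with Arg at 24 h (adjusted p from 0.0503 to 0.155). In all, 572 of the partner fold changes kept their call with all libraries kept and 18 lost it, and 284 and 70 did so with a library left out. Of the counts of calls in the partner lists, 559 stayed similar, 44 rose, and 37 fell with all libraries kept. With a library left out, 269 stayed similar, 23 rose, and 92 fell.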
